A study of Mus musculus with 4 samples.

Results

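The Dlk1-Dio3 imprinted cluster was examined in activated mouse T cells through the 49 mature miRNAs of the cluster that have a row among the 1073 in the authors' table. They were taken by name, as every row whose miRNA number is among 47 numbers assigned to the locus, with no threshold on level or ratio. The list was set with earlier results of these data known. Every member was counted in some library, so arms without a count in these libraries are not in the list. Wild type naive CD4+ T cells of the spleen transfected with ASO were compared with the same kind of cells transfected with CRO, which the series text names as the control. Both groups were activated with antibodies to CD3 and CD28, and RNA was taken at 48 h from 2 samples each. The labels do not expand ASO or CRO, do not name what ASO is directed at, and leave unsaid whether different mice or cultures gave the 2 samples of each group. The p-values below therefore set each difference against the variation among these samples alone, and that variation may be technical.

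The locus lies on chromosome 12 and is imprinted. The protein-coding genes Dlk1, Rtl1 and Dio3 are expressed from the paternal copy, while the long non-coding RNAs Meg3 (also called Gtl2), Rian and Mirg, and the miRNA hairpins among them, come from the maternal copy. Its miRNAs are best known from the embryo, placenta and brain. The hairpins opposite Rtl1 are fully complementary to the Rtl1 transcript and guide its cleavage in mice, and the section from miR-379 to miR-410 is induced by neuronal activity in rodent neurons.

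The sequences of the 10 members with the highest base mean, the mean normalized count over all libraries, are given first, since the results below turn on them. They are the mature sequences of RefSeq (GRCm38.p6), which matched 47 of the 49 members by name. Capitals mark the seed, bases 2 to 8 counted from the 5′ end, which pairs with target mRNAs.
miR-127-3p: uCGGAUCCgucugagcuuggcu
miR-541-5p: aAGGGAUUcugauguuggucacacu
miR-379-5p: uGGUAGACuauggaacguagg
miR-382-5p: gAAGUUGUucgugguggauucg
miR-434-3p: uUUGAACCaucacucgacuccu
miR-411-5p: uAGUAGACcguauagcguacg
miR-431-5p: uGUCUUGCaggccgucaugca
miR-494-3p: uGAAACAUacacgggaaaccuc
miR-299a-5p: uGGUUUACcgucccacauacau
miR-434-5p: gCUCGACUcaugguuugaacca

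The highest of them, miR-127-3p, lies at chr12:109592888-109592909 on the plus strand in GRCm38, opposite an exon of Rtl1. The submitters' processing notes name mm9 as the build, and no coordinate was converted between the builds. Of 51 RefSeq hairpins that carry one of the 47 numbers, 50 lie between Dlk1 and Dio3, from Mir770, whose hairpin starts at position 109563692, to Mir410, which ends at position 109743795. Of these 50, 49 are on the plus strand. The label of the cluster therefore holds for all 47 matched members. The 49 members come from 35 of the 51 hairpins, and the other 16 were not analysed here.

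No 2 of the 47 matched members share a seed, although many lie side by side in 1 transcribed region. Some seeds are nearly alike, and 7 pairs of members differ at 1 of the 7 seed bases. One such pair, miR-379-5p and miR-411-5p, stands among the sequences above and comes from neighbouring hairpins. The pairs below show a further 2 sets of neighbours, chosen for their seeds and not for their values. The miR-376 hairpins are also known for A-to-I editing of their transcripts, which the deposited values do not resolve.
miR-300-3p: uAUGCAAGggcaagcucucuuc
miR-381-3p: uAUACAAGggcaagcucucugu
miR-376b-3p: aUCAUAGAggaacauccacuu
miR-376a-3p: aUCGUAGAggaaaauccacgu

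Outside the cluster, only 2 members share a seed with another miRNA of the table. The seed of miR-329-3p is also that of miR-362-3p, for which the authors give a mean of 504.9 in ASO and 541.6 in CRO, beside 0.615 in ASO and 0.898 in CRO for miR-329-3p. The seed of miR-540-3p is also that of miR-6915-5p, at 1.32 in ASO and 0 in CRO.

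The cluster was scarce in these cells. Values are normalized counts, meaning read counts divided by a size factor of the library, of which the base mean is the average over both groups. The 49 members together summed to 304.8 in ASO and 337.1 in CRO, which was 0.00447% and 0.00514% of the summed means of all miRNAs in ASO and CRO. By base mean miR-127-3p, the highest member, ranked 298 among the 1073 miRNAs. A base mean of at least 10 was reached by 8 members, while 26 lay between 1 and 10 and 15 lay under 1. The 8 held 69.8% of the cluster's signal in ASO and 67.8% in CRO, and miR-127-3p alone held 21.9% in ASO and 24.3% in CRO.

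Counts per library, decoded from the authors' group means, show how few reads lie behind these levels. All members together had 487 and 441 counts in ASO, against 280 and 176 counts in CRO, of totals of 8668774 and 8930660 in ASO and 4949804 and 2812572 in CRO (miR-155-5p left out of the totals). Scaled to these totals the cluster had 56.2 and 49.4 CPM in ASO, against 56.6 and 62.6 CPM in CRO. Since the group means do not show which library is which replicate, the 2 decoded libraries of a group are named a and b, in that order throughout, and the letters pair no ASO with any CRO library. In 22 members every library had at least 1 count, and in 11 members a single library did. The number of members above 0 was 34 and 38 in ASO, against 37 and 30 in CRO. Over a group, a count of 0 allows a level of up to 0.984 in ASO and 2.24 in CRO (3 counts, counting error only), so absence from CRO is the weaker observation.

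The cells carried miRNAs known from T cells at far higher levels. The 7 miRNAs listed for T cells, among them miR-142a and miR-155-5p, all had rows and summed to 2332185 in ASO and 2124417 in CRO. Since miR-142a is expressed across blood cells, this sum does not tell T cells from other blood cells. Of 8 stromal markers, miRNAs of connective tissue cells that often express this cluster, 5 had rows and 1 had a base mean of at least 10. They summed to 52.9 and 46.4 in ASO, against 85.7 and 50.3 in CRO. Among them miR-145a-5p and miR-199b-5p were at 0 in CRO. Their ASO means, 1.27 and 0.307, lay under the level of 2.24 that a count of 0 in CRO allows. The 3 of 4 neural markers with rows summed to 220.1 and 333.4 in ASO and 275 and 256.9 in CRO, with miR-9-5p and miR-219a-5p making up most of it. The 4 muscle markers, of which 2 had rows, summed to at most 4.3 in ASO and 7.19 in CRO. Of these, miR-1a-3p was at 0 in CRO, with an ASO mean of 0.703, also under 2.24. Erythroid markers summed to 1655 and 1419 in ASO, against 2429 and 2481 in CRO, lower in both ASO libraries. So were the myeloid (5599 and 5669 in ASO, 6189 and 7239 in CRO) and epithelial markers (4464 and 4623 in ASO, 5525 and 5439 in CRO). The myeloid sum was almost all miR-223-3p, with means of 5604 in ASO and 6665 in CRO. Such separation, in either direction, was frequent, at 41.8% of 481 single miRNAs with decoded counts and a base mean of at least 10. Endothelial markers overlapped, at 1687 and 2334 in ASO and 1935 and 1399 in CRO, and miR-122-5p of liver had 75 and 84.4 in ASO and 35.8 and 25.1 in CRO. None of the markers passed the authors' adjusted p of 0.05. The part of such other cells in the cluster's level was not tested, and in bulk RNA fewer cells of a type cannot be told apart from less RNA per cell.

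**Figure D1:**
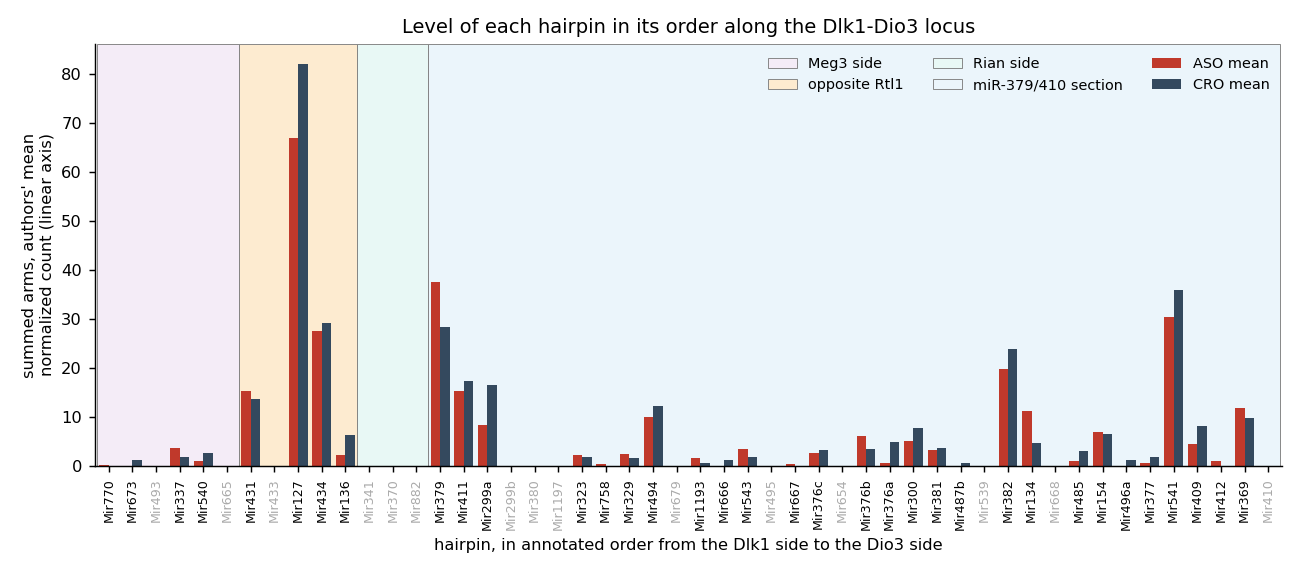
Authors' mean normalized count (linear axis) of each hairpin, both arms summed, in annotated order from the Dlk1 side to the Dio3 side, with the ASO mean left of the CRO mean and grey names for hairpins with no row used here. Mir127 is the tallest in both groups, and Mir379, Mir434, Mir541 and Mir382 follow, with low hairpins between them.

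Along the locus, the signal lay in separate peaks and not in a gradient, as the plot of hairpin levels shows. On the Meg3 side, 6 members of 4 hairpins summed to 5.01 in ASO and 5.76 in CRO. The 7 members of the 4 hairpins opposite Rtl1 summed to 112.2 in ASO and 131.2 in CRO. The section from miR-379 to miR-410 held 36 members of 27 hairpins, which summed to 187.6 in ASO and 200.2 in CRO. Within it, miR-379 and miR-411 at its start, miR-382 further along and miR-541 near its end were high. Between miR-411 and miR-382, the hairpins from miR-323 to miR-329 each stayed under 3 in both groups. Also between them, miR-299a was at 8.39 in ASO and 16.5 in CRO, and miR-494 at 10.1 in ASO and 12.2 in CRO. Both arms of miR-1247, a miRNA of the locus outside the 47 numbers, also had rows. miR-1247-5p had no counts in ASO and 2 and 0 counts in CRO, and miR-1247-3p had no counts in ASO and 0 and 1 in CRO, so both were under the floor.

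The comparison of ASO with CRO asks how transfection with ASO changed these miRNAs. None of the 49 members passed: 0 had an authors' DESeq adjusted p under 0.05, against 1.21% of all 1073 miRNAs, and 0 had a raw p under 0.05, against 2.8%. The lowest raw p was 0.0751 for miR-299a-5p, and every member had an adjusted p of 1. A limma fit of the decoded libraries, used where the base mean was 10 or more, called 0 of the 8 members at an adjusted p under 0.05, against 3.12% of the 481 miRNAs it tested. At an unadjusted p under 0.05 it called 0 of the 8, against 12.7%. The groups did not overlap for 0 of the 8, against 41.8% of those 481 miRNAs. A p that misses the threshold does not show that the groups were alike, and the intervals below give the sizes that the counts allow.

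**Figure D2:**
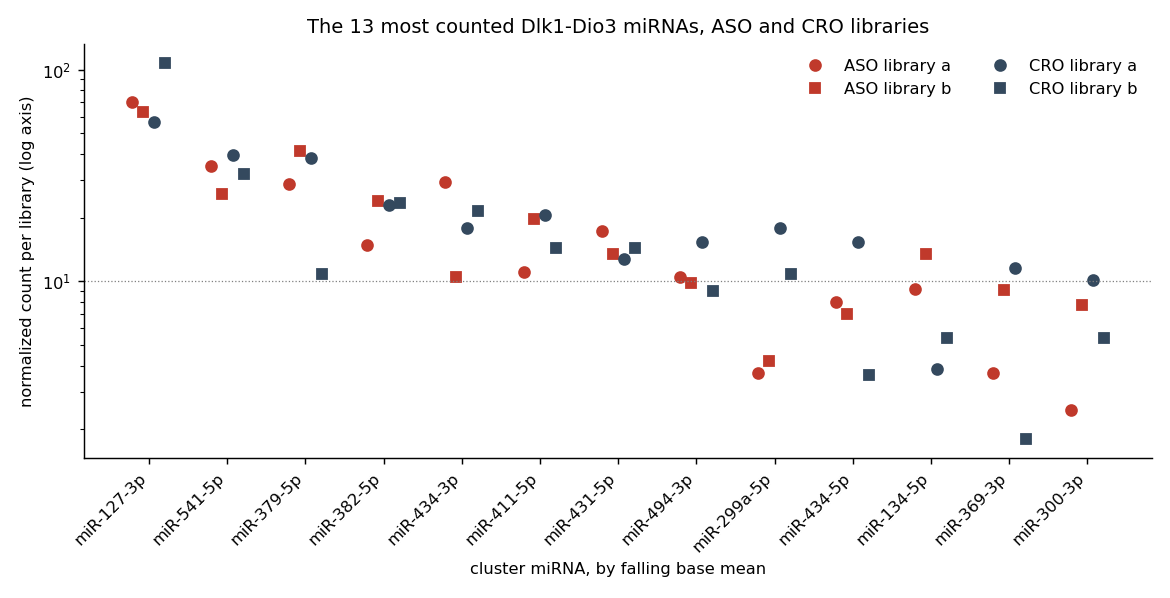
Normalized count (log axis) of the 13 members with the highest base mean in each decoded library, ASO in red left of CRO in dark blue, circles for library a and squares for library b; the dotted line is a base mean of 10. For the first 8 the ASO and CRO points interleave, and for miR-299a-5p and miR-134-5p they lie apart.

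Among the members opposite Rtl1, miR-127-3p had 70.1 and 63.3 normalized counts in ASO and 56.3 and 107.8 in CRO. Both ASO values lay between the CRO values. The authors' log2 ratio of ASO over CRO was -0.30 (DESeq adjusted p = 1), and limma gave -0.22 ± 0.38 (SE). Its other arm, miR-127-5p, had a single count, in ASO library b.

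miR-434-3p had 29.5 and 10.5 in ASO and 17.9 and 21.6 in CRO, so the ASO libraries spanned the CRO ones. Its log2 ratio was 0.02 in the authors' table and -0.14 ± 0.53 (SE) in limma, on either side of 0. miR-434-5p had 7.99 and 7.03 in ASO and 15.3 and 3.59 in CRO, again with overlap, and a log2 ratio of -0.33. miR-431-5p, known to act on Pax7 in mouse muscle stem cells, had 17.2 and 13.4 in ASO and 12.8 and 14.4 in CRO. Its log2 ratio was 0.17, with a limma estimate of 0.15 ± 0.44 (SE).

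In the section from miR-379 to miR-410, miR-541-5p had the highest base mean, although miR-379-5p was higher in ASO. miR-541-5p was at 35 and 26 in ASO and 39.6 and 32.3 in CRO. The groups overlapped, and its log2 ratio was -0.24 (limma -0.24 ± 0.35, SE). miR-379-5p, the first hairpin of the section, had 28.9 and 41.5 in ASO and 38.4 and 10.8 in CRO. One CRO library was as high as the ASO libraries and the other stood far below all 3. Its log2 ratio of 0.52 was the highest of the 8 and depended on that library: in limma it was 0.73 ± 0.58 (SE, adjusted p = 0.711), 1.60 without CRO library a (adjusted p = 0.0282) and -0.14 without CRO library b (adjusted p = 0.914). Without CRO library a, limma called 63 miRNAs in all, against 15 with every library. The other arm, miR-379-3p, had 1.84 and 2.81 in ASO and 7.67 and 0 in CRO, with the same CRO library lowest.

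miR-382-5p had 14.8 and 23.9 in ASO and 23 and 23.4 in CRO, with 1 ASO library above both CRO ones and 1 below. miR-411-5p had 11.1 and 19.7 in ASO and 20.5 and 14.4 in CRO. For both, ASO library a was the lowest of the 4 libraries. Their log2 ratios were -0.26 for miR-382-5p and -0.18 for miR-411-5p. The 3p arm of the miR-382 hairpin, miR-382-3p, had 1 count in ASO and 1 in CRO. miR-494-3p had 10.5 and 9.85 in ASO and 15.3 and 8.98 in CRO, with a log2 ratio of -0.26.

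Of the 8 members, 5 had a log2 ratio below 0, against 46.9% of the 482 miRNAs at or above that base mean of 10. Their median was -0.21, against 0.04 over those 482. In limma fits it was -0.20 with all libraries, -0.13 without ASO library a, -0.09 without ASO library b and -0.03 without CRO library a. The ratios ran from -0.30 to 0.52. Between the 2 libraries of a group, the median absolute log2 ratio of these members (pseudocount 1) was 0.46 in ASO and 0.38 in CRO, a spread of single members and not of their median. The summed level of all 49 members was 299.5 and 310.2 in ASO, against 358.1 and 316.2 in CRO. Both ASO sums lay below both CRO sums. Single miRNAs had groups that did not overlap, in either direction, in 41.8% of the 481 fitted by limma. In each main section the groups overlapped. Members opposite Rtl1 summed to 127.3 and 97.1 in ASO and 106.2 and 156.3 in CRO. Those from miR-379 to miR-410 summed to 168.5 and 206.8 in ASO and 240.4 and 159.9 in CRO. The log2 ratio of the summed means of all 49 members was -0.15. It was -0.05 without CRO library a and -0.23 without CRO library b. From pooled counts it was -0.16, with a 95% counting interval of -0.33 to 0.00, which leaves out the spread between libraries.

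**Figure D3:**
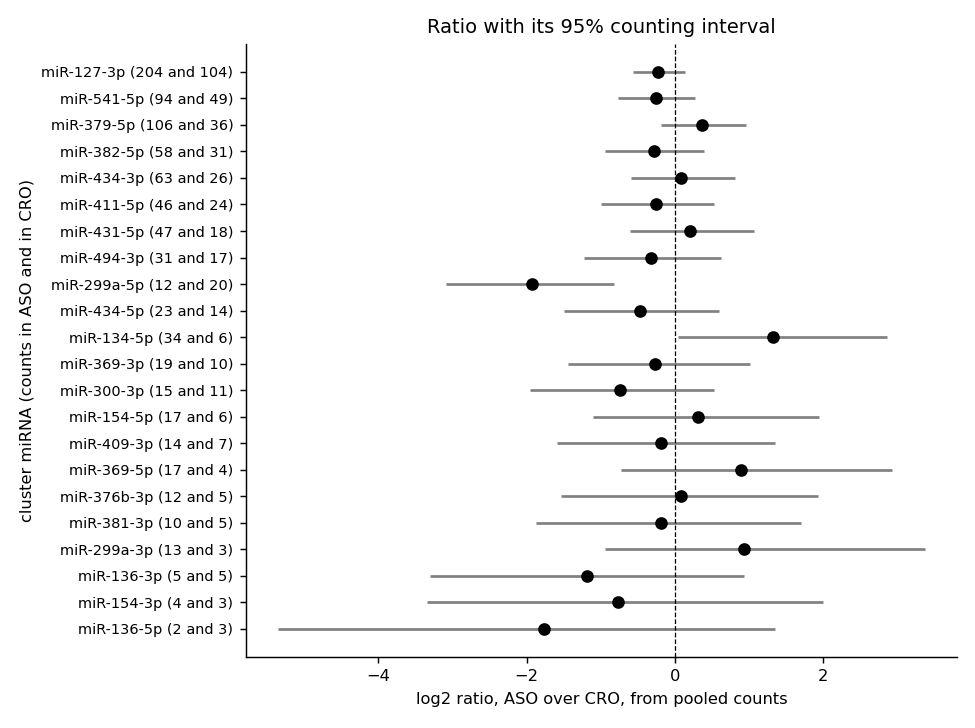
Log2 ratio of ASO over CRO from counts pooled over the 2 libraries of each group, with its exact 95% interval for counting error only, for the 22 members above 0 in every library; the pooled counts of ASO and then CRO stand beside each name. The intervals widen down the page as counts fall, and only those of miR-299a-5p and miR-134-5p leave out 0.

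Members under a base mean of 10 had too few counts for narrow intervals, which are exact binomial intervals of the pooled counts and cover counting error only. For miR-127-3p, with 204 counts in ASO and 104 in CRO, the interval ran from -0.56 to 0.14. For miR-369-3p, with 19 counts in ASO and 10 in CRO, it ran from -1.44 to 1.01. miR-369-3p, which in human cells binds the AU-rich element of the TNF mRNA, had 3.69 and 9.14 in ASO and 11.5 and 1.8 in CRO. miR-300-3p had 2.46 and 7.74 in ASO and 10.2 and 5.39 in CRO, with an interval from -1.96 to 0.53. The groups overlapped for both.

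In the 26 members between 1 and 10 the groups did not overlap for 10, of which 6 were lower and 4 higher in ASO. The share among all 327 miRNAs of that level was 36.4%. The one with the highest base mean was miR-299a-5p, at 3.69 and 4.22 in ASO and 17.9 and 10.8 in CRO. Both ASO libraries had 6 counts, although they were sequenced more deeply than the CRO libraries, which had 14 and 6. Its log2 ratio was -1.86, with a counting interval of -3.09 to -0.82. It did not pass in the authors' table (raw p = 0.0751, DESeq adjusted p = 1) or in limma with no filter (log2 ratio -1.59, unadjusted p = 0.0181, adjusted p = 0.484).

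miR-134-5p, which restrains Limk1 in rat hippocampal neurons, had 9.22 and 13.4 in ASO and 3.84 and 5.39 in CRO, so both ASO libraries were higher. With 34 counts in ASO and 6 in CRO, its authors' log2 ratio was 1.29 and its counting interval ran from 0.05 to 2.86. Its raw p was 0.305 (DESeq adjusted p = 1). The counts of its neighbours did not settle their direction. For miR-382-5p, from the next hairpin on the Dlk1 side, the groups overlapped, as given above. The counting interval of miR-382-5p ran from -0.94 to 0.39. On the Dio3 side the nearest member, miR-485-3p, chosen here for its place, had 0 and 2.11 in ASO, against 2.56 and 3.59 in CRO. These values rest on 3 counts in ASO and 4 in CRO, with a counting interval from -4.37 to 0.96.

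The counting interval also left out 0 for miR-409-5p, chosen after its values were seen. It had 0 counts in both ASO libraries and 1 and 3 counts in CRO. The interval of its log2 ratio had an upper end of -0.59 and, with no count in ASO, no lower end. It did not pass in the authors' table (DESeq raw p = 0.196, adjusted p = 1). Its partner miR-409-3p had 5.53 and 3.52 in ASO and 7.67 and 1.8 in CRO, with overlap. In all, 7 members had no count in ASO and 7 had none in CRO, and 35 had counts in both groups. Of those with none in CRO, miR-376b-5p had the most counts in ASO, 4 and 3. The interval of its log2 ratio had a lower end of -0.66, so these counts leave the direction undetermined.

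Which arm of a hairpin is kept could be followed in 14 hairpins with both arms counted. The share of counts on the 3p arm, pooled over all libraries, ran from 2.2% (95% exact binomial interval 0.267 to 7.71%) for miR-382 to 99.7% (98.2 to 100%) for miR-127. Opposite Rtl1, miR-434 kept both arms, with 70.6% on 3p (61.9 to 78.4%). In the section that starts with miR-379, miR-379 itself had 8.39% on 3p (4.54 to 13.9%), while miR-409 had 84% (63.9 to 95.5%). The main arm thus differed between hairpins of this section, which miR-379 opens and near whose end miR-409 lies.

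**Figure D4:**
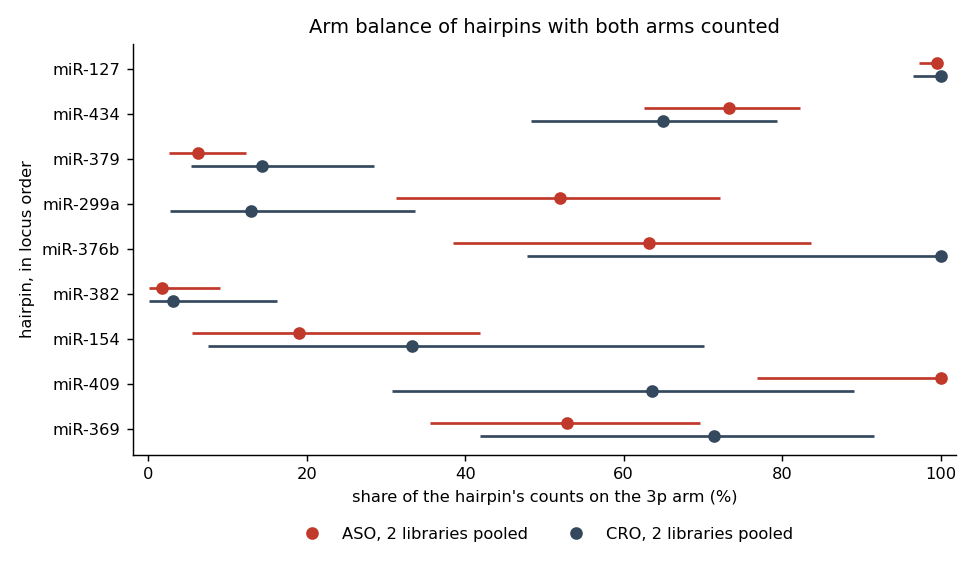
Share of each hairpin's counts on the 3p arm (%), ASO in red above CRO in dark blue, with exact 95% binomial intervals, for the 9 hairpins with at least 20 counts in all, in locus order. The ASO and CRO intervals overlap in every hairpin drawn, with the least overlap in miR-299a.

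Between the groups the intervals of the 3p share overlapped in all 9 hairpins with at least 20 counts. Overlapping intervals do not show that the shares were alike, and a difference in share was not tested. The 3p share of miR-127 was 99.5% in ASO and 100% in CRO, that of miR-382 was 1.69% in ASO and 3.12% in CRO, and that of miR-434 was 73.3% in ASO and 65% in CRO. The intervals of miR-299a overlapped little. Its 3p share was 52% in ASO (31.3 to 72.2%) and 13% in CRO (2.78 to 33.6%). By library it was 33.3% of 9 counts and 62.5% of 16 in ASO, and 12.5% of 16 and 14.3% of 7 in CRO. The intervals by library overlapped, at 7.49 to 70.1% and 35.4 to 84.8% in ASO, and 1.55 to 38.3% and 0.361 to 57.9% in CRO. miR-299a-3p itself had 1.84 and 7.03 in ASO and 2.56 and 1.8 in CRO, so 1 ASO library lay within the CRO range and the other above it. For miR-409 all 14 counts in ASO were on 3p (100%, 76.8 to 100%), against 63.6% in CRO (7 of 11, 30.8 to 89.1%). By library the 3p share of miR-409 was 100% of 9 counts and 100% of 5 in ASO, against 85.7% of 7 and 25% of 4 in CRO. The share of 25% had an interval of 0.631 to 80.6%. The 5p counts behind these shares are those of miR-409-5p given above.

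The share of each main section of the locus is given by library as a description, chosen after the values were seen. The members opposite Rtl1 made up 43% of the counts of both sections in ASO library a (207 of 481, exact 95% interval 38.6 to 47.6%) and 31.9% in ASO library b (138 of 432, 27.6 to 36.6%). In CRO they made up 30.6% in library a (83 of 271, 25.2 to 36.5%) and 49.4% in library b (87 of 176, 41.8 to 57.1%). The pooled shares were 37.8% in ASO and 38% in CRO. The 2 libraries of each group lay further apart than these pooled values, but the intervals cover counting error only and are too narrow to test whether the libraries differ.

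**Figure D5:**
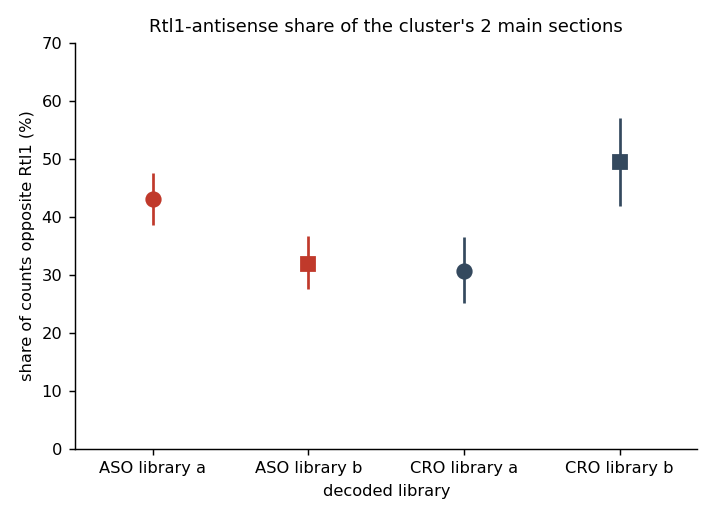
Share of counts from members opposite Rtl1 among the counts of both main sections (%), by decoded library, with exact 95% binomial intervals for counting error only; ASO in red, CRO in dark blue. The 2 libraries of each group lie apart, and the ASO range (31.9 to 43%) falls inside the CRO range (30.6 to 49.4%).

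Beyond these sums, the 20 members with at least 10 counts in ASO varied between the ASO libraries by a mean of 2.43 times the counting variance, and the 12 such members in CRO by 2.77 times. The spread between libraries is therefore wider than the counting intervals printed here.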

How the data were processed

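The authors deposited 1 table of 1073 miRNAs. Per the file headers it holds the mean normalized signal over all libraries and per group, a CRO over ASO fold ratio with its log2, and p-values before and after adjustment. The submitters' processing notes name DESeq and mm9. Neither aligner nor miRNA annotation is given in the sources used here. The deposited log2 ratio equalled that of the group means, CRO over ASO, in 843 of 843 finite cases (tolerance 1e-06) and was turned to ASO over CRO. The authors' p-value is the main test, with a threshold of 0.05.

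Counts per library were decoded by solving each group mean as 2 whole counts divided by 2 size factors (tolerance 3 roundings). CRO gave 1073 unique solutions and ASO 1072, miR-155-5p being ambiguous and left out of fits by library. The size factors of ASO were 1.626 and 1.422, those of CRO 0.7819 and 0.5567. Both pairs of libraries differed beyond sampling noise (chi-square over degrees of freedom 230.3 in ASO and 472.8 in CRO) and were kept as separate samples. Normalized counts + 1 were fitted on the log2 scale with limma 3.58.1 (trend, robust) in R 4.3.3, tested on simulated data. Such folds understate the change of low miRNAs. The deposited log2 and fold values were not used for tests. The 95% intervals are binomial intervals of read counts and cover counting error only. No source used here mentions molecular identifiers, so reads copied from the same molecule could not be told apart. The intervals treat all reads as independent.

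Named members were those with a base mean of at least 10, their other arms, members with a raw p under 0.05 and the 5 next by level. Sequences were printed for the 10 highest by base mean and for 2 near-identical seed pairs. The members and lists were chosen with earlier results of these data known. Sections of the locus were set by name and checked against GENCODE M21 and RefSeq. Python 3.11.15, scipy 1.17.1 and pandas 2.3.3 were used.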

Additional observations from a re-analysis of the deposited data

How the results depend on the processing

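No paired analysis was possible because nothing ties a decoded library to its replicate number. The count of 0 members called did not change in the authors' raw p or in the limma fits with all libraries. Leaving out 1 library gave 0 to 1, the 1 being miR-379-5p without CRO library a. In such fits the variation comes from the intact group alone, and the single library left in its group is taken to vary as much. The median log2 ratio of -0.21 became -0.03 in limma with no filter, over 49 members, and ran from -0.21 to -0.03 when 1 library was left out. Of the members below 0, 5 of 8 became 1 of 1 when a base mean of 50 was required, in the authors' means and in limma, where miR-127-3p alone is tested, and 4 to 6 when 1 library was left out. The log2 ratio of the sums, -0.15, became -0.30 with that filter, and ran from -0.23 to -0.05 when 1 library was left out.

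Of 80 alternative values of the named members, 62 stayed on the same side of 0 and of the threshold, 17 changed sign and 1 newly passed. Over fits without 1 library, miR-127-3p ran from -0.69 to 0.24, miR-379-5p from -0.14 to 1.60, miR-382-5p from -0.62 to 0.04, miR-434-3p from -0.84 to 0.56 (-0.26 and -0.01 without CRO library a and b), miR-411-5p from -0.59 to 0.19, miR-431-5p from -0.02 to 0.32 and miR-494-3p from -0.55 to 0.16. With all libraries, miR-434-3p was at -0.14 in limma and without a filter, -0.15 and -0.06 with pseudocounts of 0.5 and 10, and -0.17 with library totals. With no filter, miR-379-3p was at 0.16 and miR-369-3p at 0.22. The cause of these changes was not tested. Library totals moved the median of all miRNAs by -0.03. The main limits are 2 libraries per group and the few counts of the CRO libraries.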
